A study of Rattus norvegicus with 12 samples.

Results

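Nucleus pulposus cells of the rat, which fill the soft centre of the disc between vertebrae, were compared with and without erastin while every culture also received exosomes shed by nucleus pulposus progenitor cells (NPPC-Exo). The libraries were taken by their labels: 3 of NPPC-Exo alone and 3 of erastin with NPPC-Exo, which are 6 of the 12 libraries in the series. NPPC-Exo were given at 50 µg/mL in both groups, and erastin was given for 48 h in 1 of them. The labels state the erastin dose as a range from 0.1 to 5 µM and do not give the dose of any single library. They name the tissue as intervertebral disc and give no strain, age or number of animals, so the spread between the 3 libraries of a group may be technical, and the p-values measure that spread alone. No group went without exosomes. The remaining 6 libraries, in which exosomes labelled miR-Exo were given with and without erastin, helped to estimate the spread and served for one further test, the interaction described last.

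Erastin blocks the antiporter that carries cystine into the cell in exchange for glutamate, whose transport subunit is the product of Slc7a11. Cystine feeds the synthesis of glutathione, and the selenoenzyme encoded by Gpx4 uses glutathione to reduce lipid peroxides, so blocked uptake can end in ferroptosis, a death that needs iron and ends in oxidised membranes. Nucleus pulposus cells are known for a matrix of aggrecan and type II collagen that holds water under load. In painful or degenerating discs, cells of the core are known to release chemokines and proteases through NF-kB, a family of transcription factors held in the cytoplasm by inhibitors such as IkB-alpha until a signal removes them.

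Each library held between 54616827 and 63895336 counts over genes, and 15650 of the 21071 genes in the table had enough counts to be tested. Levels are given below as counts per 1000000 (CPM) after TMM scaling, which assumes that most genes keep their level. A level is 1 library's value or the mean ± SD over 3 libraries. Changes are log2 differences, erastin minus none, with their standard error (SE). A gene is said to rise or fall where the quasi-likelihood test of edgeR, adjusted over all genes by the Benjamini-Hochberg method, gave p under 0.05, and the adjusted p of every gene named as risen or fallen was at most 0.0302. Where a sentence gives no p for such a gene, this bound stands in for it. The largest component of variation among the 6 libraries took up 81.3% of the variance and parted the groups. A component with 7.52% set NPPC-Exo replicate 1 apart from its fellows, so the leading counts are also given without it. Col2a1 and Cdkn1a, described below, were among the genes higher in that library than in its fellows.

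Erastin changed 6816 genes, 43.6% of those tested, of which 3362 (21.5%) rose and 3454 (22.1%) fell. Without NPPC-Exo replicate 1 the counts were 3234 and 3351. At least 2-fold changes were called for 1061 genes that rose and 944 that fell, and at least 16-fold changes for 210 and 80. The balance between rises and falls rests on the scaling: with library totals alone in place of TMM, which moved the median of all genes up by 0.283 on the log2 scale, 6405 genes rose and 1832 fell, and 77.8% of the calls were rises against 49.3% with TMM. The 1061 genes that rose at least 2-fold together took 1.07% ± 0.0296 of all scaled counts without erastin and 3.98% ± 0.218 with it (SD, n = 3), while the 944 that fell at least 2-fold went from 19.4% ± 0.339 to 8.28% ± 0.194. Among the 103 genes above 1000 CPM, 13 rose and 68 fell. The 100 most abundant genes of a library held 38% to 38.7% of its counts without erastin and 29.4% to 30.1% with it.

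**Figure D1:**
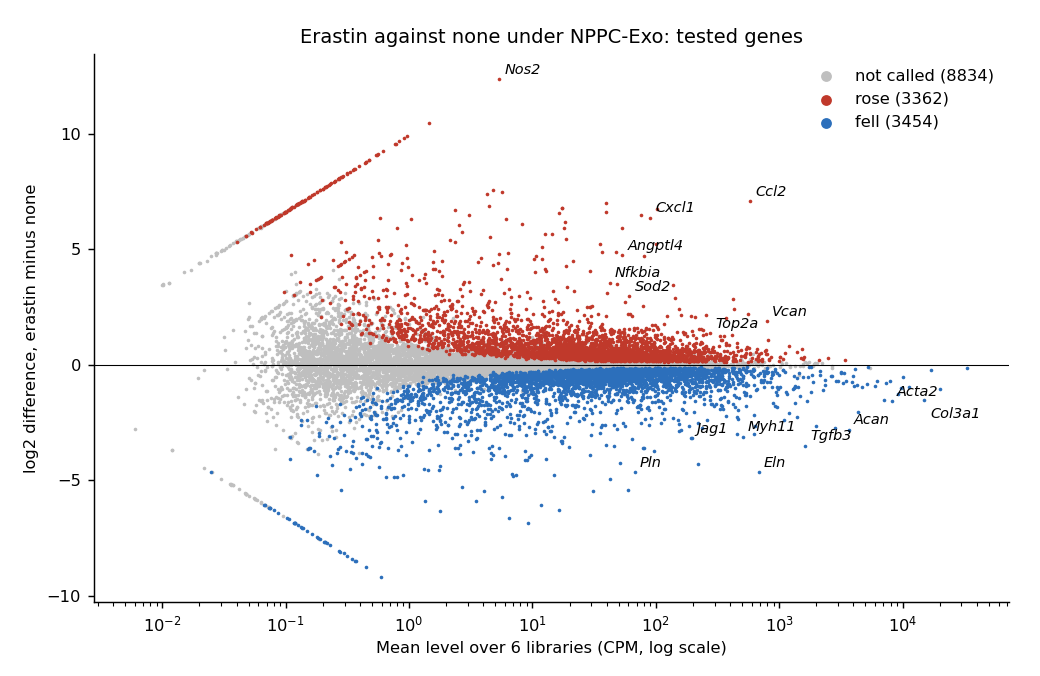
Each point is 1 of 15650 tested genes, placed by its mean level over the 6 libraries (CPM, log axis) and its log2 difference, erastin minus none; red points rose, blue points fell and grey points were not called. The straight lines are genes at 0 in a group, whose fitted difference depends on the prior count. Named rises such as Ccl2 and Nos2 begin at low levels, while named falls such as Acan, Col3a1 and Acta2 lie at the right, above 1000 CPM.

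The cells carried transcripts of the disc core before erastin, and most of those shared with cartilage were lower with it. Of 16 nucleus pulposus or chondrocyte markers 12 fell and 1 rose, and their summed level went from between 13500 and 14000 CPM to between 4170 and 4460 CPM. Acan, which encodes aggrecan, was at 6569.9, 6484 and 6114 CPM without erastin and 988, 826 and 919.8 CPM with it (log2 difference -2.81, SE 0.073, adjusted p = 1.02e-11). Every erastin library lay far below every library without it. Col2a1, type II collagen, was at 1387, 857 and 831 CPM without erastin and 202, 223 and 255 CPM with it, with NPPC-Exo replicate 1 above its fellows and the groups apart (log2 difference -2.18, SE 0.21, adjusted p = 1.42e-06). Sox9, the factor that keeps chondrocyte genes on, fell from 33.3 ± 7.42 to 12.8 ± 1.98 CPM (log2 -1.38, SE 0.20). Pax1, a factor of disc precursors, fell from 116 ± 5.04 to 28.0 ± 1.15 CPM (log2 -2.05, SE 0.094). Other genes of disc identity did not fall as a set. Of 4 tested notochordal cell markers 2 rose and 0 fell. The summed level of notochordal markers went from between 34.4 and 37.5 CPM to between 47.5 and 48.3 CPM. Most of that sum came from the 2 that rose, so it says little of the others. Of the 5 such markers in the table, 2 stayed under 1 CPM in all 6 libraries. Of 22 disc identity factors and keratins 6 rose and 5 fell, so 50.0% were called, against 43.6% of all genes. Smooth muscle or pericyte markers, summed, went from between 20500 and 23000 CPM to between 7150 and 8410 CPM, and fibroblast markers from between 52900 and 60300 CPM to between 20900 and 24300 CPM, so the cultures carried high levels of genes that are not particular to the disc core. In bulk RNA, fewer cells of a type and less RNA per cell cannot be told apart. Most markers of leukocytes were near 0: neutrophil markers summed to at most 0.178 CPM, lymphocyte markers to at most 0.922 CPM, and 8 of 10 myeloid markers stayed under 1 CPM in all 6 libraries. The other two were Cd68 and Cd14, a receptor for bacterial lipopolysaccharide that is not limited to leukocytes, at 7.06, 6.49 and 8.46 CPM without erastin and 11.7, 12.3 and 15.9 CPM with it. Cd68 was at 0.784, 0.358 and 0.326 CPM without erastin and 0.737, 1.24 and 1.16 CPM with it (log2 difference 1.09, SE 0.37, adjusted p = 0.0302), a call that was lost in the 6 libraries alone (edgeR adjusted p = 0.0896), without NPPC-Exo replicate 2 (0.104) or 3 (0.107), and without erastin and NPPC-Exo replicate 2 (0.0915) or 3 (0.0787). Myeloid markers summed to between 7.98 and 9.69 CPM without erastin and to between 13.5 and 18.2 CPM with it, most of it Cd14, and the part of such cells in the results below was not tested.

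Genes of NF-kB and its brakes rose, as did chemokines that are known targets. Of the NF-kB subunits and feedback genes 23 of 29 rose and 2 fell (median log2 difference 1.15). Nfkbia, which encodes IkB-alpha and is itself switched on by NF-kB, was at 7.52, 5.99 and 6.55 CPM without erastin and 61.4, 87.7 and 84.7 CPM with it (log2 difference 3.54, SE 0.13, adjusted p = 2.05e-10). Every erastin library was far above every library without it. Tnip1, a ubiquitin-binding partner of the deubiquitinase A20, was at 81.8, 84.0 and 79.3 CPM without erastin and 304, 354 and 354 CPM with it (log2 difference 2.04, SE 0.060, adjusted p = 2.05e-11). Zc3h12a, a nuclease that cuts cytokine messages, rose from 14.6 ± 1.04 to 97.1 ± 4.88 CPM (log2 2.73, SE 0.11), and Nfkbiz, a nuclear co-factor, rose from 23.8 ± 2.23 to 103 ± 3.19 CPM (log2 2.12, SE 0.11). Among the subunits, Relb rose from 4.32 ± 0.606 to 19.6 ± 1.73 CPM and Nfkb2 from 30.8 ± 1.23 to 89.9 ± 10.6 CPM, which form the dimer of the slower non-canonical arm, while Nfkb1 rose from 72.7 ± 4.93 to 159 ± 14.9 CPM.

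Chemokines had the highest median of the 68 gene lists. Of 20 tested chemokines of the CC, CXC and CX3C classes 17 rose and the others were not called, with a median log2 difference of 5.7, beside 0.0175 over all genes, and 5.22 where genes at 0 counts are set at their bound. The list held 31 genes, 28 of them in the table, and those with too few counts were not tested. A chemokine near 0 without erastin was tested only where another group had enough counts. The share that rose and the median rest in part on that filter. Ccl2, which draws monocytes, was at 7.45, 9.13 and 8.84 CPM without erastin and 929.7, 1273 and 1240.2 CPM with it (log2 difference 7.08, SE 0.20, adjusted p = 2.05e-11). Cxcl1, which draws neutrophils, was at 1.93, 2.32 and 2.26 CPM without erastin and 99.4, 227 and 209 CPM with it (log2 difference 6.36, SE 0.28, adjusted p = 1.14e-09). Both genes were low in every NPPC-Exo library and far higher in every erastin library. Cxcl16 and Cx3cl1, chemokines made as membrane proteins that also tether cells, rose from 5.24 ± 0.871 to 195 ± 29.4 CPM and from 1.86 ± 0.370 to 69.2 ± 26.0 CPM. Cxcl12, which holds progenitors in their niche, started higher, at 8.90 ± 0.261 CPM, and reached 52.5 ± 3.64 CPM (log2 2.56, SE 0.084). Tlr2, a receptor for bacterial lipoproteins, was at 0.731, 0.301 and 0.470 CPM without erastin and 22.6, 47.5 and 38.4 CPM with it (log2 difference 6.16, SE 0.33, adjusted p = 5.45e-09).

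Promoters of these genes are shown because the genes moved together and because the letters bound by NF-kB are known. RefSeq start sites on the GRCr8 build were matched for 9993 of the 15547 gene symbols tested, keeping symbols with 1 start, and the 250 bases before the start were searched on both strands. The NF-kB consensus lay in 8 of 16 chemokine promoters, in 10 of 24 of the NF-kB list, in 14 of 32 of the promoters matched for the 40 genes with the largest rises, in 1 of 28 of those for the 40 largest falls, and in 8.53% of all matched promoters. These sets share some chemokine promoters. The consensus was not limited to lists that rose. It lay in 5 of 16 promoters of the cartilage matrix list, where 14 genes fell and 2 rose. It also lay in 5 of 11 of the disc identity list and 6 of 22 of the Notch and hedgehog list. Among other lists of mostly fallen genes it lay in 3 of 32 fibrous collagen promoters and 0 of 9 of small leucine-rich proteoglycans. In 2.11% of promoters with such a match it shared a base with another motif searched. A match of letters is a description of the sequence and does not show that the factor was bound. Below, capitals mark the NF-kB consensus, read 5′ to 3′ toward the start of the gene, with matches on either strand.
Cxcl1 (chr14:17479322-17479571, minus strand): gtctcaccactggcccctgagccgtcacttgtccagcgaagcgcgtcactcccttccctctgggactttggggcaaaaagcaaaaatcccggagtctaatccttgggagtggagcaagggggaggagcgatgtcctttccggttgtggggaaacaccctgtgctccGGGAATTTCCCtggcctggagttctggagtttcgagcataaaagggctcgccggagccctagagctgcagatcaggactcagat
Cxcl2 (chr14:17467256-17467505, minus strand): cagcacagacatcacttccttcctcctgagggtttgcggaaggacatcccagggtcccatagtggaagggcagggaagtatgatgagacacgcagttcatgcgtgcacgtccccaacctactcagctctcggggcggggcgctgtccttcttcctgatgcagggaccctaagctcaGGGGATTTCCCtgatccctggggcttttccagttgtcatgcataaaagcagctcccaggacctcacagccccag
Ccl20 (chr9:91836909-91837158, plus strand): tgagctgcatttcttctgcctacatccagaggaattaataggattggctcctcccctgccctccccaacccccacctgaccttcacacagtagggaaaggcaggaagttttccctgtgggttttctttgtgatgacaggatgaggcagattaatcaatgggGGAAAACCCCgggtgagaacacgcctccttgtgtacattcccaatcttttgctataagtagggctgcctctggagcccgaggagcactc
Nfkbia (chr6:78597073-78597322, minus strand): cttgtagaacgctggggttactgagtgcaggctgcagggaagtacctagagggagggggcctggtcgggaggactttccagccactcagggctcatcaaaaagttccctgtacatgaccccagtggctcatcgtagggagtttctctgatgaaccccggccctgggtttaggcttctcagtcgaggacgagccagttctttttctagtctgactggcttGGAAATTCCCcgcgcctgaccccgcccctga
Tlr2 (chr2:171504558-171504807, minus strand): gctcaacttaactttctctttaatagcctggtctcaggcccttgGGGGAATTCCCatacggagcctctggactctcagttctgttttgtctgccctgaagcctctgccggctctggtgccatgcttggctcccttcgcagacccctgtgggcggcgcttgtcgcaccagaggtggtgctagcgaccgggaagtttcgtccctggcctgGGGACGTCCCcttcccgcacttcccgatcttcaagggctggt
Vcam1 (chr2:206742784-206743033, minus strand): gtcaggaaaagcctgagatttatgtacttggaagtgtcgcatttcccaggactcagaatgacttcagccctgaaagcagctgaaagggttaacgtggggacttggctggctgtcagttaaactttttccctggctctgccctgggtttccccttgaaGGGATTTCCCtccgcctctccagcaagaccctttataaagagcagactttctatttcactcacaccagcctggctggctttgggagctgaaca
The match begins 31 bases before the start of Nfkbia, 93 before that of Vcam1 and 89 before that of Ccl20. Overlapping matches begin 84 and 83 bases before the start of Cxcl1, and 74 and 73 before that of Cxcl2. Tlr2 holds a pair that overlaps, at 206 and 205 bases, and a single match at 42.

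Of 32 genes of innate sensing and the inflammasome 20 rose and 2 fell, with a median log2 difference of 0.682. Ripk2, the kinase behind the NOD receptors, rose from 23.3 ± 0.844 to 135 ± 22.3 CPM (log2 2.53, SE 0.100). Nlrp3, the sensor of the inflammasome, rose from 8.78 ± 0.671 to 50.2 ± 4.84 CPM (log2 2.52, SE 0.10), and Gsdmd, the pore of pyroptosis, from 38.7 ± 0.788 to 85.7 ± 2.43 CPM (log2 1.15, SE 0.053). Their groups did not overlap. Nos2, the inducible nitric oxide synthase, was at 0, 0 and 0 CPM without erastin and 4.26, 16.4 and 11.7 CPM with it. Its mean with erastin was 592-fold the limit of 3 counts over the 3 libraries without erastin. That fold leaves out the spread between the erastin libraries. Ass1, which returns citrulline to arginine for that enzyme, rose from 3.34 ± 0.509 to 55.3 ± 12.7 CPM (log2 4.05, SE 0.21). Sod2, the superoxide dismutase of mitochondria and a known NF-kB target, was at 12.1, 14.99 and 14.8 CPM without erastin and 81.6, 125 and 118 CPM with it (log2 difference 2.95, SE 0.14, adjusted p = 1.67e-09).

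Prostaglandin genes were called in both directions. Ptgs2, the inducible cyclooxygenase, was at 216, 226 and 226 CPM without erastin and 456, 492 and 467 CPM with it (log2 difference 1.08, SE 0.089, adjusted p = 3.85e-07). Ptges, which makes prostaglandin E from its product, rose from 0.794 ± 0.270 to 20.7 ± 4.50 CPM (log2 4.70, SE 0.31). Slco2a1, the transporter that takes prostaglandins back up, fell from 25.8 ± 1.87 to 8.84 ± 0.819 CPM (log2 -1.55, SE 0.10), and Hpgd, which inactivates them, fell from 2.91 ± 0.225 to 0.599 ± 0.206 CPM (log2 -2.28, SE 0.29). Over the whole list of 26 tested genes 10 rose and 7 fell, so 65.4% were called, against 43.6% of all genes.

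Cytokines of the IL-1 and IL-6 families were called in both directions. Of 28 tested genes of ligands and receptors, 9 rose and 8 fell, 13 and 5 with library totals alone. With TMM 60.7% were called, against 43.6% of all genes. Il1a rose from 0.190 ± 0.173 to 8.86 ± 1.35 CPM, Il6 from 7.43 ± 0.909 to 28.2 ± 4.07 CPM and Lif, a cytokine of the IL-6 family, from 47.3 ± 6.10 to 119.7 ± 7.61 CPM. Il1rl1, the receptor and decoy for IL-33, was at 1937, 2028 and 2215 CPM without erastin and 753, 559 and 618 CPM with it (log2 difference -1.68, SE 0.091, adjusted p = 6.89e-09). Il1rap, the co-receptor shared by IL-1 and IL-33, fell from 110.3 ± 9.90 to 31.9 ± 0.966 CPM (log2 -1.79, SE 0.070), whereas Il1r1 rose from 90.9 ± 2.07 to 169.8 ± 8.52 CPM (log2 0.90, SE 0.061). Csf1, the growth factor of macrophages, was among the largest gains in abundance, at 131, 144 and 133 CPM without erastin and 642, 785 and 761 CPM with it (log2 difference 2.42, SE 0.069, adjusted p = 1.94e-11).

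Ligands, receptors and inhibitors of cell death were called in both directions. Of 23 genes of the TNF superfamily 10 rose and 4 fell, 14 and 2 with library totals alone. With TMM 60.9% were called, against 43.6% of all genes. Tnfrsf1b, the inducible TNF receptor, rose from 12.0 ± 0.650 to 25.4 ± 1.91 CPM (log2 1.09, SE 0.079). Tnfrsf11b, the decoy osteoprotegerin, was at 446, 448 and 487 CPM without erastin and 137, 135 and 129 CPM with it (log2 difference -1.79, SE 0.058, adjusted p = 5.45e-11), lower in every erastin library. Of 39 genes of the BCL2 family, caspases and their inhibitors 17 rose and 6 fell, 25 and 1 with library totals alone. In this list 59.0% were called with TMM. Birc3, an inhibitor of death at the TNF receptor and a known NF-kB target, was at 4.55, 3.92 and 4.43 CPM without erastin and 31.4, 45.1 and 41.8 CPM with it (log2 difference 3.20, SE 0.14, adjusted p = 1.27e-09). The death genes Casp8, Bid and Apaf1 rose from 6.15 ± 0.556 to 17.2 ± 0.557 CPM, from 9.99 ± 1.37 to 25.9 ± 0.689 CPM and from 81.2 ± 0.641 to 138 ± 7.99 CPM.

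Genes that display the cell to the immune system rose. Of 28 antigen presentation genes 23 rose and 1 fell (median log2 difference 1.32), and of 54 interferon response genes 36 rose and 1 fell (median 1.4, and 1.18 without NPPC-Exo replicate 1). B2m, the light chain of class I molecules, was at 176, 211 and 207 CPM without erastin and 482, 461 and 456 CPM with it (log2 difference 1.24, SE 0.063, adjusted p = 3.87e-09). Psmb8, a subunit of the immunoproteasome, rose from 3.11 ± 0.626 to 21.3 ± 4.33 CPM (log2 2.77, SE 0.19), and Tap1, of the peptide transporter, from 21.2 ± 1.14 to 48.1 ± 4.00 CPM (log2 1.18, SE 0.085). Class I heavy chain genes have near-identical copies whose reads can be split, so RT1-CE5 (log2 1.17, SE 0.094) and RT1-N3 (log2 1.27, SE 0.10) are given as uncertain. Gbp5 and Gbp2, guanylate-binding proteins induced by interferon, rose from 2.43 ± 0.236 to 70.6 ± 8.72 CPM and from 0.958 ± 0.188 to 23.0 ± 3.48 CPM. Irf1, a factor shared by the interferon and NF-kB responses, was at 8.79, 8.45 and 9.46 CPM without erastin and 48.7, 51.9 and 50.1 CPM with it (log2 difference 2.50, SE 0.10, adjusted p = 5.18e-10), and Ifngr1, the receptor of interferon gamma, rose from 52.9 ± 0.843 to 179 ± 16.7 CPM (log2 1.75, SE 0.063).

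The interferon element searched, GAAANNGAA, was found in 24 of 42 matched promoters of interferon response genes and 9 of 23 of antigen presentation genes, against 6.01% of all matched promoters. Capitals mark it in 2 promoters, of a guanylate-binding protein and of Tap2, the partner of Tap1 in the peptide transporter.
Gbp2 (chr2:234005477-234005726, plus strand): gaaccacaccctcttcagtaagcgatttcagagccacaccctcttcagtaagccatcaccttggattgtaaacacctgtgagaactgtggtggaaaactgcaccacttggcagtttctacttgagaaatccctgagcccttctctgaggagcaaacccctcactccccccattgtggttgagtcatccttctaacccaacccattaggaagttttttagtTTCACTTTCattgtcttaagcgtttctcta
Tap2 (chr20:4652297-4652546, minus strand): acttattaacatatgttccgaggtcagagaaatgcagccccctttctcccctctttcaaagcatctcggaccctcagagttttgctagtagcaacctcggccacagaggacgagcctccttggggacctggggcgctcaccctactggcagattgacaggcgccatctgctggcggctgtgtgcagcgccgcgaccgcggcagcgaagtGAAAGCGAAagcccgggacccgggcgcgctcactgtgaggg
The matches begin 30 and 41 bases before the start.

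Of 25 complement and acute-phase genes 10 rose and 1 fell, so 44.0% were called, near the 43.6% of all genes, with a median of 1.4, or 1.5 without NPPC-Exo replicate 1. C1r, a protease of the first complement component, was at 56.2, 61.3 and 59.6 CPM without erastin and 255, 261 and 270.2 CPM with it (log2 difference 2.15, SE 0.048, adjusted p = 3.41e-12), and C1s, its substrate protease, rose from 8.36 ± 0.385 to 72.4 ± 6.09 CPM (log2 3.11, SE 0.090). C3, the component at which the pathways meet, rose from 0.496 ± 0.224 to 24.7 ± 6.53 CPM (log2 5.64, SE 0.34). Clu, a chaperone that blocks the membrane attack complex, rose from 71.7 ± 4.56 to 313 ± 15.3 CPM (log2 2.13, SE 0.059), as did Cd55, which breaks up C3 convertases (log2 1.96, SE 0.11), while Cd59, which blocks the final pore, fell from 46.9 ± 2.01 to 18.6 ± 1.54 CPM (log2 -1.33, SE 0.086). Of 18 adhesion molecules for leukocytes 7 rose and 4 fell, so 61.1% were called, against 43.6% of all genes. Vcam1, the ligand for leukocyte integrins, was at 0.357, 0.922 and 0.488 CPM without erastin and 21.1, 47.1 and 38.2 CPM with it (log2 difference 5.92, SE 0.33, adjusted p = 8.10e-09). Icam1 started higher and rose from 87.1 ± 2.86 to 191 ± 29.7 CPM (log2 1.13, SE 0.094). Esam and Mcam, adhesion molecules of vessel and mural cells, fell from 116 ± 10.6 to 2.68 ± 0.382 CPM and from 373 ± 3.66 to 64.7 ± 8.49 CPM. Of 8 endothelial markers 6 were tested, 4 of which fell and 1 rose, and their summed level, most of it Esam without erastin, went from between 155 and 174 CPM to between 18.4 and 21.0 CPM. Flt1, a receptor of VEGF, fell from 26.1 ± 1.40 to 7.96 ± 1.08 CPM, Erg, a factor of endothelial cells, fell from 6.45 ± 0.648 to 0.711 ± 0.146 CPM, Egfl7, a protein secreted by them, fell from 11.5 ± 0.482 to 5.28 ± 0.923 CPM, and Tek, the angiopoietin receptor, rose from 1.07 ± 0.126 to 2.67 ± 0.272 CPM (log2 1.32, SE 0.20). The call of Egfl7 was lost without erastin and NPPC-Exo replicate 1 (edgeR adjusted p = 0.0647) and with limma on log2(FPKM + 0.1) (adjusted p = 0.0619). Tie1 had no count in any of the 6 libraries. The part of such cells in these results was not tested.

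Of genes with a common symbol, 11 had no count in any NPPC-Exo library and a mean of at least 1 CPM with erastin. Besides Nos2 they were Gbp4, with a mean 159.8-fold the limit of 3 counts over the group at 0, Foxh1 (106-fold), Ikzf1 (101-fold), Rtp4 (91.3-fold), Sting1 (85.2-fold), Bcl6b (83.7-fold), Hcar2 (67.2-fold), Slpi (61.9-fold), Fgr (60.6-fold) and Cd69 (59.6-fold). Each fold takes the group at 0 at its limit and leaves out the spread between the erastin libraries. RGD1561998, known by a number alone, also had no count in 1 group and a mean of at least 1 CPM in the other. Sting1 is the adaptor that reports cytosolic DNA. Ikzf1, Fgr and Cd69 are best known from leukocytes, and their levels here were 1.84, 1.10 and 1.09 CPM. Lymphocyte markers summed to at most 0.274 CPM in the erastin libraries, and myeloid markers to between 13.5 and 18.2 CPM. The part of such cells in these values was not tested.

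**Figure D2:**
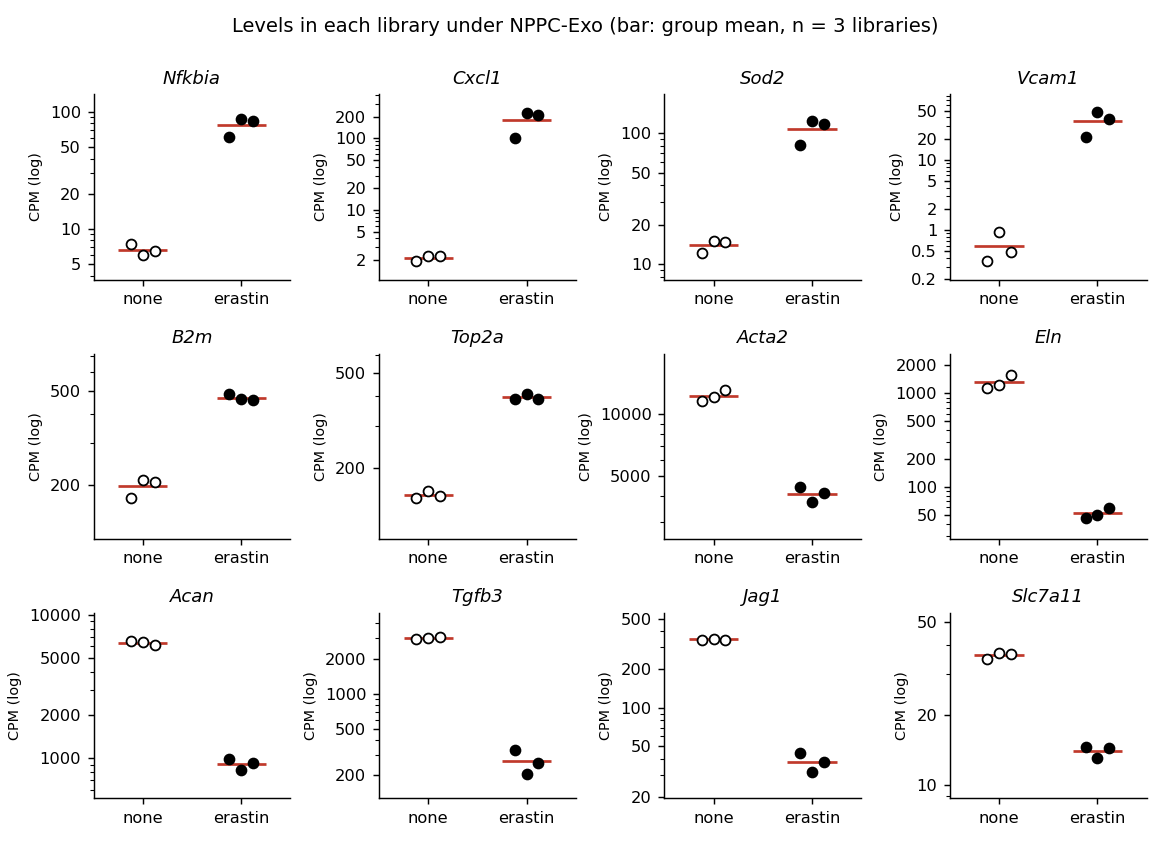
CPM in each library for 12 genes, on log axes that differ between panels, with open circles for NPPC-Exo, filled circles for erastin with NPPC-Exo and a bar at each group mean. In all 12 panels the groups lie apart: Nfkbia, Cxcl1, Sod2, Vcam1, B2m and Top2a are higher with erastin, and Acta2, Eln, Acan, Tgfb3, Jag1 and Slc7a11 are lower.

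Of 14 matrix metalloproteinases 7 rose and 4 fell. Mmp3, Mmp10, Mmp9 and Mmp13, which cut proteoglycan, gelatin and collagen, rose from low levels, to 150.0 ± 25.4, 34.3 ± 5.85, 104 ± 10.2 and 92.6 ± 30.2 CPM. Mmp2 and Mmp14, the most abundant of the family, were not called: Mmp2 was at 519, 498 and 521 CPM without erastin and 488, 501 and 524 CPM with it (log2 difference -0.02, SE 0.045, adjusted p = 0.724), and Mmp14 at 475, 469.6 and 468 CPM without erastin and 453, 462 and 480.4 CPM with it (log2 difference -0.02, SE 0.042, adjusted p = 0.771). With library totals alone both were called higher, at 0.2601 and 0.2648 on the log2 scale. Adamts8 rose from 6.00 ± 0.633 to 155 ± 18.2 CPM (log2 4.69, SE 0.14), whereas Adamts12 fell from 719 ± 12.0 to 312 ± 12.7 CPM and Adamts1 from 699.5 ± 16.4 to 369 ± 31.8 CPM. Over 30 ADAM and ADAMTS genes 9 rose and 14 fell, and their median of -0.135 became 0.149 with library totals alone. Timp3, an inhibitor that stays bound to the matrix, fell from 24.4 ± 1.42 to 3.33 ± 0.321 CPM (log2 -2.87, SE 0.13). The AP-1 letters TGANTCA lay in 4 of 8 matched promoters of the metalloproteinase list, those of Mmp3, Mmp10, Mmp12 and Mmp13, and in 4.46% of all matched promoters. They are in capitals in the 2 promoters shown.
Mmp3 (chr8:12925031-12925280, plus strand): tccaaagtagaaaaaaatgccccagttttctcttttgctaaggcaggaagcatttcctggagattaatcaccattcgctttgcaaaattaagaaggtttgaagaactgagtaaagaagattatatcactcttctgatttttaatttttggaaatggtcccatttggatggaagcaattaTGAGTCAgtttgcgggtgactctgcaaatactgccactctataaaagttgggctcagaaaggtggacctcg
Mmp13 (chr8:12782579-12782828, plus strand): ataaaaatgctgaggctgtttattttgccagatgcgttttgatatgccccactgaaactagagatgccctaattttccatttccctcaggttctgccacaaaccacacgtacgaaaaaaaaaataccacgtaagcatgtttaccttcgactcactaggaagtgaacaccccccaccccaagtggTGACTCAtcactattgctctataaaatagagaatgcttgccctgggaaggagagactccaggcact
The match begins 71 bases before the start of Mmp3 and 66 before that of Mmp13. Of 43 AP-1, immediate early and MAPK phosphatase genes 8 rose and 18 fell, 13 and 15 with library totals alone. Fos fell from 25.7 ± 1.52 to 10.1 ± 1.35 CPM (log2 -1.35, SE 0.18), Dusp1 fell from 175 ± 15.1 to 55.4 ± 5.38 CPM (log2 -1.66, SE 0.11) and Fosl1 rose from 15.8 ± 2.18 to 29.7 ± 1.97 CPM (log2 0.91, SE 0.12).

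Cell division genes rose across nearly the whole list. Of 60 genes of mitosis 58 rose and 1 fell, with a median log2 difference of 1.15, and of 55 genes of DNA replication 46 rose and 1 fell, with a median of 0.773. Top2a, which untangles DNA before division, was at 149, 159 and 152 CPM without erastin and 391, 408 and 390.1 CPM with it (log2 difference 1.37, SE 0.062, adjusted p = 1.37e-09). Ccnb1, the cyclin of mitotic entry, rose from 39.3 ± 3.08 to 113 ± 1.19 CPM (log2 1.52, SE 0.059), and Kif20a, a motor of the dividing cell's midzone, from 90.2 ± 1.27 to 244 ± 4.54 CPM (log2 1.44, SE 0.042). Rrm2, the subunit of ribonucleotide reductase that limits nucleotide supply, was at 54.7, 55.1 and 51.8 CPM without erastin and 143, 165 and 159 CPM with it (log2 difference 1.53, SE 0.064, adjusted p = 5.62e-10). Mcm3, Mcm6 and Mcm7, of the replicative helicase, rose from 57.6 ± 1.28 to 141 ± 1.54 CPM, from 64.5 ± 2.33 to 139 ± 6.20 CPM and from 60.3 ± 3.30 to 138 ± 2.60 CPM. The 3 libraries of each group lay close together for these genes and the groups apart.

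Most called genes of the entry into the cycle rose as well. Of 33 genes of the G1 cyclins, their inhibitors and E2F 22 rose and 3 fell. Mybl2, an activator of late cycle genes, was at 42.4, 43.2 and 42.6 CPM without erastin and 122, 124 and 124 CPM with it (log2 difference 1.53, SE 0.048, adjusted p = 4.10e-11). Ccnd1, the cyclin that answers growth factors, rose from 257 ± 15.6 to 485 ± 38.2 CPM (log2 0.92, SE 0.064), while Ccnd2 fell from 77.4 ± 3.53 to 36.3 ± 1.79 CPM (log2 -1.09, SE 0.069). Mdm2, a ubiquitin ligase, rose (log2 0.80, SE 0.048), as did Plk2, a kinase of the polo family (log2 2.16, SE 0.057). Cdkn1a, an inhibitor that stops the cycle, was at 253, 136 and 137 CPM without erastin and 188, 241 and 265 CPM with it and was not called (log2 difference 0.40, SE 0.28, adjusted p = 0.282), and its groups overlapped. Without NPPC-Exo replicate 1, which stood above its fellows, it was called higher (log2 difference 0.7644, edgeR adjusted p = 0.0347). Of 65 DNA repair genes 33 rose and 3 fell, so 55.4% were called, against 43.6% of all genes. With library totals alone 47 rose and 0 fell. Brca1, of repair by recombination, rose from 18.0 ± 2.13 to 44.4 ± 0.736 CPM, and Parp1, a sensor of strand breaks, from 78.8 ± 0.260 to 137 ± 4.18 CPM. Genes that build ribosomes rose in 33 of 55 cases and fell in 2, among them Ncl, nucleolin, from 581 ± 33.8 to 793 ± 17.3 CPM, and Npm1, nucleophosmin, from 369 ± 28.8 to 555 ± 12.7 CPM.

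Promoters of the cycle genes were searched for the letters of their own known factors. The CHR letters TTTGAA, bound by the complex that times mitotic genes, lay in 26 of 49 matched promoters of mitosis genes against 10.2% of all, and CCAAT boxes in 73.5% against 35.4%. Neither was limited to mitosis genes. CCAAT boxes lay in 71.4% of cholesterol and fatty acid synthesis promoters, where 24 genes fell and 10 rose. They lay in 86.2% of those of endoplasmic reticulum chaperones, where 18 fell and 4 rose. CHR letters lay in 6 of 28 promoters of the 40 largest falls and 1 of 32 of the 40 largest rises. The E2F letters TTTGGCGC or TTTCCCGC lay in 12 of 45 matched promoters of replication genes against 2.39% of all. Capitals mark CHR letters in Cdc20 and Pttg1, which act at the end of mitosis, and E2F letters in Mcm5.
Cdc20 (chr5:137255800-137256049, minus strand): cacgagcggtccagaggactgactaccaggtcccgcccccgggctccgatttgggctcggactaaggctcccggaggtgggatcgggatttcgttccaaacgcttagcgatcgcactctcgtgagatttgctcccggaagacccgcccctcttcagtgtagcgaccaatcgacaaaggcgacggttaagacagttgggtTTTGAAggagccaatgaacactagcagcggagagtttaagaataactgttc
Pttg1 (chr10:28406327-28406576, minus strand): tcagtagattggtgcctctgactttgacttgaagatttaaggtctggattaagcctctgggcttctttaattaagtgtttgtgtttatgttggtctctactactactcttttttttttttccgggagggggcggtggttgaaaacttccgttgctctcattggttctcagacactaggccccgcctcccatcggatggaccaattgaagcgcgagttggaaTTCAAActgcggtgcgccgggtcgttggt
Mcm5 (chr19:13488563-13488812, plus strand): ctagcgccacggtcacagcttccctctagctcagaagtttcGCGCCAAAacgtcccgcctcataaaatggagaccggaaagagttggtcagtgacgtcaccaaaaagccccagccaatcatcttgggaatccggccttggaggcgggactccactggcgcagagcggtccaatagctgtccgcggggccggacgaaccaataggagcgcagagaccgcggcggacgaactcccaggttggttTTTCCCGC
Cdc20 rose from 46.3 ± 8.66 to 152 ± 23.9 CPM, Pttg1 from 10.9 ± 1.41 to 35.2 ± 1.35 CPM and Mcm5 from 59.0 ± 3.67 to 123 ± 3.26 CPM.

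**Figure D3:**
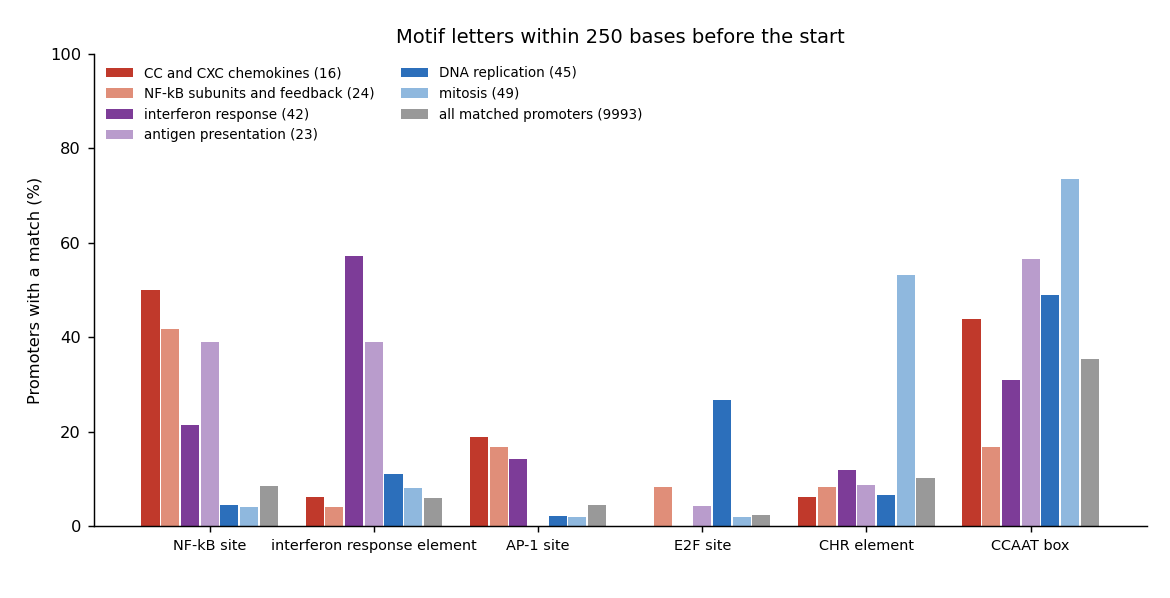
Share of matched promoters, in percent, that hold each motif within 250 bases before the start, for 6 gene lists and for all 9993 matched promoters (grey). The NF-kB consensus stands at 50% for the chemokines against 8.53% for all promoters, the interferon element at 57.1% for interferon response genes against 6.01%, and the CHR element at 53.1% for mitosis genes against 10.2%.

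Of 47 genes taken as mechanical targets of YAP and SRF, the factors that read tension and actin, 31 fell and 5 rose (or 26 and 11 with library totals alone), with a median log2 difference of -0.705. Acta2, smooth muscle alpha-actin, was at 11548, 12169.8 and 13108 CPM without erastin and 4442, 3743 and 4137 CPM with it (log2 difference -1.58, SE 0.059, adjusted p = 1.93e-10), with a loss in CPM behind those of Col3a1 and Col1a1 alone among named genes. Myh11, the smooth muscle myosin heavy chain, was at 881, 908 and 931 CPM without erastin and 112, 101 and 99.8 CPM with it (log2 difference -3.12, SE 0.055, adjusted p = 5.07e-13). Mylk, the kinase that starts myosin contraction, fell from 414 ± 30.1 to 61.2 ± 5.39 CPM (log2 -2.76, SE 0.072), and Cnn1, which restrains it, from 784 ± 27.6 to 152 ± 18.0 CPM (log2 -2.37, SE 0.086). Myocd, the co-activator of SRF in smooth muscle, fell from 229.8 ± 23.0 to 46.3 ± 5.85 CPM (log2 -2.31, SE 0.10).

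Most of the called genes of striated muscle fell. Of 40 sarcomere and muscle genes 16 fell and 3 rose, so 47.5% were called, near the 43.6% of all genes, and their median of -0.51 was -0.202 without NPPC-Exo replicate 1. Pln, the brake of the calcium pump, was at 114, 137 and 137 CPM without erastin and 5.21, 4.93 and 5.29 CPM with it (log2 difference -4.65, SE 0.13, adjusted p = 2.05e-11). Casq2, the calcium store of the reticulum, fell from 97.3 ± 5.59 to 5.07 ± 0.784 CPM (log2 -4.26, SE 0.12), Myom1, which anchors thick filaments, from 29.1 ± 1.17 to 1.08 ± 0.255 CPM (log2 -4.76, SE 0.22), and Dmd, dystrophin, from 62.4 ± 2.77 to 7.96 ± 1.60 CPM (log2 -2.97, SE 0.12). Acta1, skeletal alpha-actin, fell from 84.6 ± 1.65 to 7.43 ± 2.27 CPM (log2 -3.51, SE 0.24) and holds a CArG box, the binding letters of SRF, within 250 bases of its start, in capitals here.
Acta1 (chr19:68784195-68784444, minus strand): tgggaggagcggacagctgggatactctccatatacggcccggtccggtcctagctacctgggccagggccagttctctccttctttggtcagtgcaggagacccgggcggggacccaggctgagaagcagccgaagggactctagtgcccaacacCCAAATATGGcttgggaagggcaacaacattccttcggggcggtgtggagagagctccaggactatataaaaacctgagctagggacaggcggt
CArG boxes lay in 3 of 29 matched promoters of the mechanical list and 3 of 30 of the muscle list, against 1.18% of all. In the mechanical list they belonged to genes with small changes in both directions, log2 differences of -0.297, -0.168 and 0.195. They also lay in 5 of 32 promoters of the AP-1, immediate early and MAPK phosphatase list, where 8 genes rose and 18 fell. In 16.9% of promoters with a CArG match it shared a base with another motif searched.

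Of 39 heat shock genes 20 rose and 12 fell. Among those that fell were 4 small heat shock proteins, a family that guards actin and desmin filaments: Cryab from 134 ± 13.8 to 36.5 ± 5.34 CPM (log2 -1.87, SE 0.11), Hspb1 from 34.5 ± 0.296 to 9.73 ± 1.38 CPM (log2 -1.83, SE 0.14), Hspb6 from 67.2 ± 2.68 to 23.0 ± 0.727 CPM and Hspb7 from 11.5 ± 0.706 to 1.38 ± 0.167 CPM. Among those that rose were large chaperones of the cytosol: Hsp90ab1 was at 1140.1, 1189 and 1228 CPM without erastin and 1866, 1899.9 and 1896 CPM with it (log2 difference 0.67, SE 0.040, adjusted p = 1.83e-08) and Hsp90aa1 rose from 607 ± 6.43 to 928 ± 20.5 CPM (log2 0.61, SE 0.052). Tubulins, among them Tuba1b (log2 0.80, SE 0.051) and Tubb5 (log2 0.54, SE 0.054), were among the largest gains in abundance.

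MicroRNA hairpins are counted in the table as genes, and reads of a longer transcript over them cannot be told apart from their own. Of 55 tested miRNA genes 15 fell and 2 rose, a share called of 30.9%, below the 43.6% of all genes. Mir143 and Mir145, whose products are known to keep smooth muscle contractile, were at low levels. Mir143 was at 1.12, 0.922 and 0.742 CPM without erastin and 0.137, 0.0756 and 0.0297 CPM with it (log2 difference -3.51, SE 0.55, adjusted p = 1.65e-04), and Mir145 at 1.27, 0.941 and 0.742 CPM without erastin and 0.188, 0.0756 and 0.0594 CPM with it (log2 difference -3.18, SE 0.58, adjusted p = 5.69e-04). Mir22 was at 2.55, 2.94 and 2.98 CPM without erastin and 1.03, 1.06 and 1.08 CPM with it (log2 difference -1.42, SE 0.21, adjusted p = 1.05e-04), with groups clearly apart. Mir21, at 0.588, 0.414 and 0.326 CPM without erastin and 0.0343, 0.0303 and 0.0743 CPM with it (log2 difference -3.19, SE 0.82, adjusted p = 0.00633), fell to near the level of 3 counts, which is 0.0446 to 0.0565 CPM over these libraries. Mir221 was at 0.303, 0.320 and 0.307 CPM without erastin and 0.411, 0.318 and 0.327 CPM with it and was not called (log2 difference 0.17, SE 0.16, adjusted p = 0.639). It was called higher with limma on log2(FPKM + 1) (0.3513, adjusted p = 0.00075) and on log2(FPKM + 0.1) (0.4619, adjusted p = 0.000372). Mature miRNAs themselves were not measured. The mature forms from RefSeq on GRCr8, matched for 18 of the 55 genes, are shown with the seed, bases 2 to 8, in capitals, for 2 hairpins whose RNA fell and for Mir221, which was not called by edgeR.
rno-miR-22-3p: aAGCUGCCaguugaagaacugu
rno-miR-21-5p: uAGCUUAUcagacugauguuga
rno-miR-221-3p: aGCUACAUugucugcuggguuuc
The 3 seeds differ from each other.

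The fibrous matrix fell over most of its genes. Of 41 fibrous collagens and collagen processing genes 34 fell and 5 rose, with a median log2 difference of -0.841. Col3a1, type III collagen, was at 21449.8, 22385 and 23334 CPM without erastin and 7612, 7509.7 and 8092 CPM with it (log2 difference -1.53, SE 0.071, adjusted p = 1.59e-09), the largest loss in CPM among the called genes. Col12a1, which links fibrils, fell from 3413 ± 62.2 to 538 ± 14.9 CPM (log2 -2.66, SE 0.055). Postn, periostin, of tissue under load, fell from 4909 ± 254 to 732 ± 31.7 CPM (log2 -2.74, SE 0.054). Lox, the enzyme that cross-links collagen and elastin, rose from 2241 ± 89.4 to 2752 ± 63.5 CPM (log2 0.30, SE 0.054).

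Of 32 genes of elastic fibres, fibronectin and matricellular proteins 23 fell and 5 rose, 16 and 8 with library totals alone. Eln, elastin, was at 1126, 1223 and 1579 CPM without erastin and 46.7, 49.4 and 59.3 CPM with it (log2 difference -4.66, SE 0.28, adjusted p = 1.80e-08), and the groups were far apart. Fbln5, which guides elastin onto microfibrils, fell from 1096 ± 75.8 to 174 ± 6.05 CPM (log2 -2.65, SE 0.058).

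Basement membrane genes fell in 17 of 23 cases, and 3 rose. Col4a3 and Col4a4, chains of a network found in few tissues, fell from 82.7 ± 4.29 to 2.67 ± 0.309 CPM and from 15.8 ± 4.03 to 1.92 ± 0.267 CPM, and the common chain Col4a1 from 3109.8 ± 121 to 2198 ± 53.6 CPM. Lamb3, a chain of epithelial laminin, rose from 2.84 ± 0.676 to 26.3 ± 2.57 CPM (log2 3.21, SE 0.17).

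Proteoglycan genes were called in both directions. Of 13 small leucine-rich proteoglycans 8 fell, among them Aspn (log2 -3.32, SE 0.10), Ogn (log2 -2.81, SE 0.23), Fmod (log2 -1.48, SE 0.056) and Bgn (log2 -0.82, SE 0.046). Podnl1 was the 1 that rose (log2 1.94, SE 0.15). Vcan, versican, the large proteoglycan of provisional matrix, rose while aggrecan fell: it was at 349.9, 355 and 312 CPM without erastin and 1152, 1346 and 1251 CPM with it (log2 difference 1.88, SE 0.075, adjusted p = 3.50e-10). Genes of hyaluronan, to which both large proteoglycans bind, rose in 9 of 19 cases and fell in 1, with Has2, a synthase, from 12.6 ± 1.67 to 26.4 ± 2.03 CPM (log2 1.07, SE 0.11) and Ugdh, which supplies its sugar, from 101 ± 0.437 to 211 ± 11.7 CPM (log2 1.06, SE 0.053). In the hyaluronan list 52.6% were called, against 43.6% of all genes, and 12 rose and 1 fell with library totals alone. Among heparan sulphate carriers Sdc2 fell from 836 ± 37.1 to 243 ± 12.0 CPM (log2 -1.78, SE 0.049) and Gpc4 from 609 ± 46.6 to 132 ± 3.42 CPM (log2 -2.20, SE 0.065).

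Mineralisation and hypertrophy genes, which mark cartilage on its way to bone, fell in 14 of 24 cases and rose in 1, 12 and 4 with library totals alone. Mgp, an inhibitor of calcification, was at 501, 570.2 and 652 CPM without erastin and 179.8, 212 and 192 CPM with it (log2 difference -1.56, SE 0.10, adjusted p = 3.57e-08). Spp1, osteopontin, fell from 4166 ± 364 to 2375 ± 27.0 CPM (log2 -0.81, SE 0.060), Runx2, a factor of bone cells, from 60.8 ± 2.77 to 40.5 ± 2.85 CPM (log2 -0.58, SE 0.077), and Pth1r, a receptor of growth plate signals, from 7.33 ± 0.768 to 2.82 ± 0.528 CPM (log2 -1.38, SE 0.18). The 1 that rose was Enpp2, which makes lysophosphatidic acid, from 1.87 ± 0.143 to 35.8 ± 6.09 CPM (log2 4.25, SE 0.16).

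Integrins, through which cells hold the matrix, were called in both directions. Of 25 tested, 10 fell and 7 rose, 10 and 9 with library totals alone. Itga11, the collagen receptor of fibroblasts, was at 1344, 1359 and 1326 CPM without erastin and 439.8, 394 and 439 CPM with it (log2 difference -1.66, SE 0.057, adjusted p = 9.08e-11). Itga8, which binds fibronectin and nephronectin, fell from 432 ± 7.18 to 132 ± 7.60 CPM (log2 -1.71, SE 0.050). Itga2, another collagen receptor, rose from 1.35 ± 0.466 to 24.1 ± 3.00 CPM (log2 4.15, SE 0.22), and Itgb1, the common partner, fell from 4898 ± 143 to 2915 ± 69.9 CPM (log2 -0.75, SE 0.042).

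Tgfb3 is a ligand of the TGF-beta family. Tgfb3 was at 2954, 2996 and 3054 CPM without erastin and 329.7, 208 and 256 CPM with it (log2 difference -3.50, SE 0.13, adjusted p = 1.56e-10), and the groups were far apart. Tgfb2 fell from 519 ± 22.0 to 197 ± 15.3 CPM (log2 -1.40, SE 0.067), and Ccn2, a known target of TGF-beta, fell from 7853 ± 457 to 4094 ± 80.2 CPM. Inhba, of activin, rose from 262 ± 27.5 to 477 ± 23.7 CPM (log2 0.87, SE 0.069), as did Grem1, an antagonist of bone morphogenetic proteins (log2 0.53, SE 0.055). Across the 57 genes of the TGF-beta and BMP list 21 fell and 16 rose, and the median of -0.178 became 0.106 with library totals alone.

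Several genes of Notch signalling fell, among them a ligand, a receptor and targets. Jag1, a ligand, was at 342, 349 and 343 CPM without erastin and 44.4, 31.4 and 37.6 CPM with it (log2 difference -3.19, SE 0.10, adjusted p = 5.34e-11). Notch3, the receptor of mural cells, fell from 25.1 ± 3.93 to 6.04 ± 0.458 CPM (log2 -2.05, SE 0.18). The targets Heyl, Hey2 and Hes1 fell from 6.19 ± 0.881 to 0.451 ± 0.241 CPM, from 11.2 ± 0.264 to 2.25 ± 0.199 CPM and from 13.2 ± 2.17 to 4.45 ± 0.187 CPM. The more abundant receptor Notch2 rose from 296 ± 13.7 to 373 ± 8.33 CPM (log2 0.33, SE 0.058), and Rbpj, the DNA-binding partner, from 218 ± 3.89 to 366 ± 35.3 CPM (log2 0.75, SE 0.067). In the whole list of 27 Notch and hedgehog genes 8 fell and 6 rose, 8 and 11 with library totals alone. The share called was 51.9%, against 43.6% of all genes.

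WNT genes included 17 that fell and 5 that rose of 46, so 47.8% were called, near the 43.6% of all genes. The counts were 9 and 11 with library totals alone. Frzb, a secreted WNT inhibitor of cartilage, fell from 16.3 ± 1.67 to 1.20 ± 0.579 CPM (log2 -3.76, SE 0.28), and Nkd2, an inhibitor inside the cell, from 116 ± 17.6 to 12.3 ± 1.81 CPM (log2 -3.23, SE 0.13). Wnt5a, a ligand that acts without beta-catenin, rose from 24.7 ± 0.623 to 67.5 ± 4.30 CPM (log2 1.45, SE 0.080). Among other growth factor genes Egfr rose from 21.8 ± 2.21 to 101 ± 5.76 CPM (log2 2.21, SE 0.078) and Fgf10 fell from 189 ± 2.46 to 32.8 ± 3.43 CPM (log2 -2.53, SE 0.081).

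Genes of the IGF system fell in 10 of 20 cases and rose in 2, 7 and 4 with library totals alone. Igf2r, which clears IGF2, was at 1680.3, 1832 and 1745 CPM without erastin and 940.4, 917 and 928 CPM with it (log2 difference -0.92, SE 0.045, adjusted p = 2.57e-09). The adaptors Irs1 and Irs2 fell from 21.1 ± 1.83 to 11.3 ± 0.602 CPM and from 65.4 ± 2.98 to 38.4 ± 1.45 CPM, and the carrier Igfbp5 rose from 2.07 ± 0.877 to 8.07 ± 3.33 CPM (log2 1.96, SE 0.30).

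Genes known from nerve guidance were called in both directions. Slit3 and its receptor Robo2 fell from 66.6 ± 4.81 to 10.8 ± 0.661 CPM and from 115 ± 5.47 to 33.7 ± 1.72 CPM, and Sema3d and Sema3e fell from 186 ± 1.13 to 48.8 ± 5.65 CPM and from 88.0 ± 2.75 to 29.6 ± 3.43 CPM, while Ntn1, netrin, rose from 0.0964 ± 0.109 to 4.22 ± 0.976 CPM (log2 5.41, SE 0.88). Bdnf, a neurotrophin, fell from 27.5 ± 1.89 to 12.4 ± 1.29 CPM (log2 -1.14, SE 0.097). In the list of 48 genes 14 rose and 17 fell, 19 and 16 with library totals alone.

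**Figure D4:**
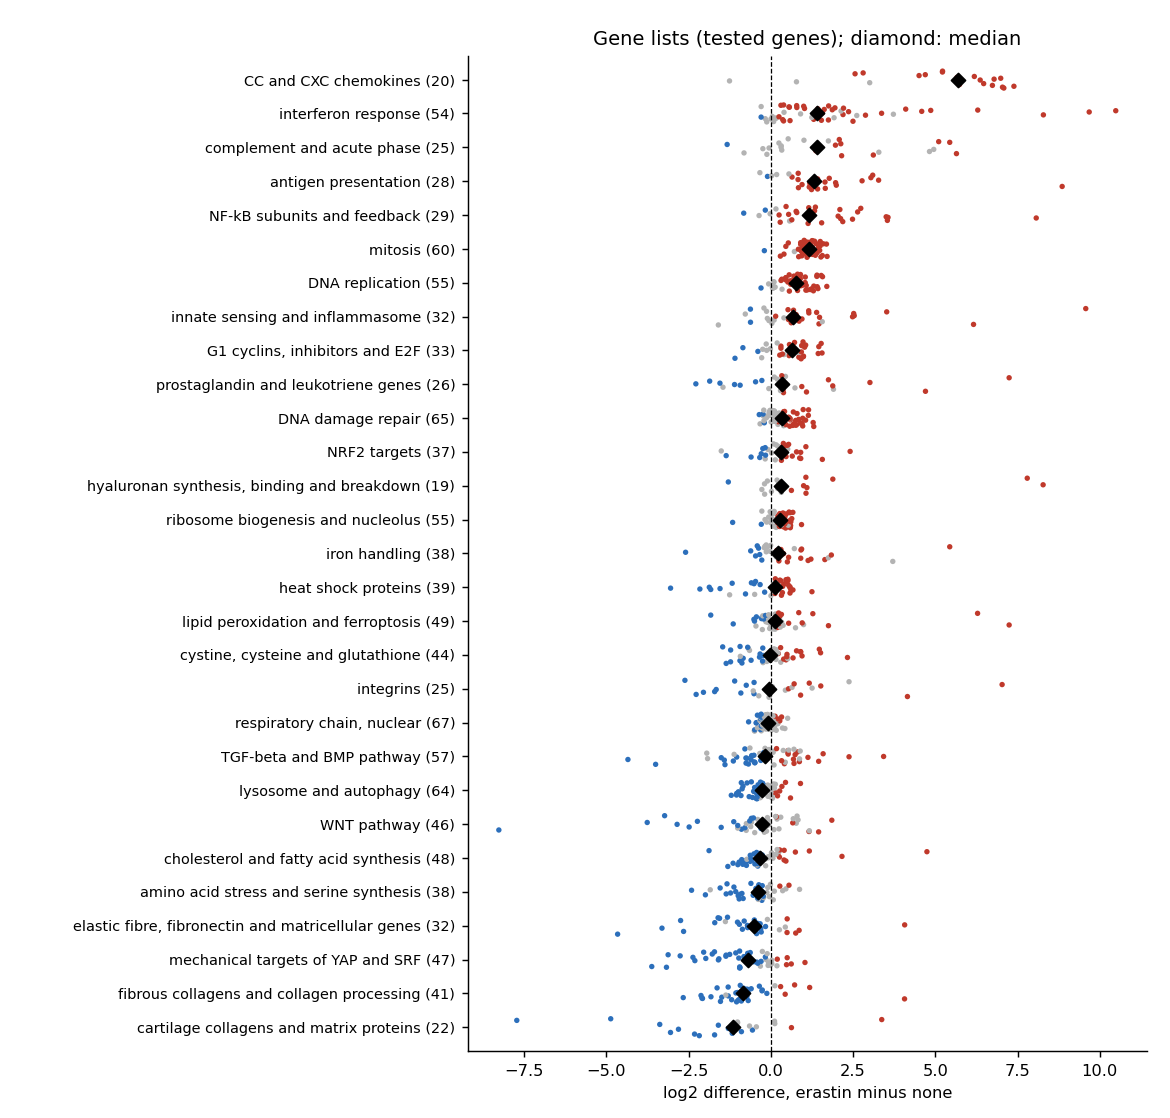
Median log2 difference, erastin minus none, over the tested genes of the listed gene groups (diamonds), with every gene of the list as a point, red for rises, blue for falls and grey for genes not called; the dashed line is the median of all genes, 0.0175. Chemokines, interferon response, antigen presentation and mitosis genes lie to the right of it, and cartilage, collagen and contractile genes to the left.

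Of 44 genes of cystine, cysteine and glutathione 14 rose and 15 fell, with a median log2 difference of -0.0136, and 21 and 10 with library totals alone. The gene of the cystine transporter fell, while Gpx4 and Acsl4, central to ferroptosis, were not called. Slc7a11, the cystine transporter itself, was at 34.9, 36.9 and 36.6 CPM without erastin and 14.6, 13.2 and 14.5 CPM with it (log2 difference -1.36, SE 0.076, adjusted p = 8.94e-09), lower in every erastin library. Gclc, which starts glutathione synthesis, fell from 158 ± 4.19 to 104 ± 2.47 CPM (log2 -0.60, SE 0.046). Gpx4 was at 36.5, 66.3 and 44.3 CPM without erastin and 39.2, 43.5 and 40.2 CPM with it, with overlapping groups, and was not called (log2 difference -0.26, SE 0.20, adjusted p = 0.32). Acsl4, which loads membranes with oxidisable lipid, was at 186, 189 and 192 CPM without erastin and 192, 181 and 180.4 CPM with it and was not called either (log2 difference -0.04, SE 0.055, adjusted p = 0.632), but was called higher with library totals alone (0.2457 on the log2 scale). Of 49 genes of lipid peroxidation and ferroptosis 14 rose and 9 fell, so 46.9% were called, near the 43.6% of all genes, with 28 and 2 called in those directions with library totals alone.

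Targets of NRF2, the factor that answers oxidants, rose in 19 of 37 cases and fell in 7, 25 and 2 with library totals alone. Akr1b8, an aldo-keto reductase, was at 48.4, 51.4 and 45.8 CPM without erastin and 234, 275 and 264 CPM with it (log2 difference 2.41, SE 0.080, adjusted p = 6.30e-11), and Nqo1, a quinone reductase, rose from 65.5 ± 5.72 to 123 ± 9.70 CPM (log2 0.91, SE 0.070). Slc7a11, often counted as such a target, fell, and Bach1, a repressor of them, rose from 27.9 ± 2.98 to 82.6 ± 6.97 CPM (log2 1.56, SE 0.092). Among 38 iron genes 16 rose and 7 fell, 22 and 2 with library totals alone. Fth1, the ferritin that stores iron, rose from 178 ± 12.4 to 259 ± 8.58 CPM (log2 0.54, SE 0.10), Tfrc, the transferrin receptor, from 104 ± 10.9 to 147 ± 6.27 CPM (log2 0.50, SE 0.070), and Cp, a ferroxidase of iron export, from 8.41 ± 1.17 to 30.1 ± 1.04 CPM (log2 1.84, SE 0.092). Flvcr2, of the haem and choline carriers, fell from 63.1 ± 2.64 to 10.5 ± 2.58 CPM (log2 -2.59, SE 0.15).

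Genes of the amino acid stress response fell. Of 38 genes of that response and of serine synthesis 23 fell and 2 rose, and with library totals alone 16 fell and 6 rose. Asns, asparagine synthetase, was at 196, 212 and 237 CPM without erastin and 110.3, 109 and 111 CPM with it (log2 difference -0.96, SE 0.065, adjusted p = 5.61e-08). Slc7a5, a transporter of large neutral amino acids, fell from 396 ± 10.3 to 206 ± 13.7 CPM (log2 -0.94, SE 0.054), Nupr1 from 113 ± 21.9 to 38.9 ± 0.881 CPM (log2 -1.54, SE 0.11) and Chac1, which breaks glutathione down and is often used as a sign of this response, from 26.8 ± 4.30 to 14.9 ± 1.25 CPM (log2 -0.84, SE 0.12).

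Genes of lipid synthesis and use were called in both directions. Of 48 genes of cholesterol and fatty acid synthesis 24 fell and 10 rose, with 17 and 16 under library totals alone and 24 and 10 without NPPC-Exo replicate 1. Hmgcs1, an early enzyme of the sterol path, was at 277, 293 and 294 CPM without erastin and 122, 110.2 and 116 CPM with it (log2 difference -1.31, SE 0.074, adjusted p = 9.36e-09). Angptl4, a PPAR target that inhibits lipoprotein lipase, was at 4.12, 4.18 and 3.29 CPM without erastin and 90.5, 110.0 and 109 CPM with it (log2 difference 4.74, SE 0.11, adjusted p = 4.22e-12). Cpt1a, which admits fatty acids to mitochondria, rose from 50.9 ± 3.35 to 155 ± 2.65 CPM (log2 1.61, SE 0.056), Pdk4, which turns mitochondria away from glucose, from 6.01 ± 0.854 to 29.2 ± 2.04 CPM (log2 2.28, SE 0.12), and Ucp2 from 43.8 ± 3.47 to 142 ± 6.97 CPM (log2 1.70, SE 0.14). Over the 51 genes of fatty acid oxidation, storage and PPAR 14 rose and 12 fell, 28 and 3 with library totals alone. The share called was 51.0%, against 43.6% of all genes.

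Genes tied to the low oxygen and high salt of the disc core were also among those called. Ca9, a carbonic anhydrase used as a marker of hypoxic nucleus pulposus, was at 513, 517 and 584 CPM without erastin and 171, 139 and 153 CPM with it (log2 difference -1.80, SE 0.076, adjusted p = 6.09e-10). Of 45 genes of glycolysis and hypoxia 17 rose and 11 fell, 27 and 4 with library totals alone, among them Pfkfb3, which speeds glycolysis, from 156 ± 0.159 to 89.5 ± 2.13 CPM, and the peptide hormone Adm, from 5.98 ± 0.654 to 26.4 ± 2.05 CPM. Of 54 genes of water, osmotic and ion transport 15 rose and 14 fell, 22 and 9 with library totals alone. The share called was 53.7%, against 43.6% of all genes. Aqp1, a water channel, fell from 805 ± 59.1 to 439.6 ± 11.8 CPM (log2 -0.87, SE 0.071), Atp2b4, a calcium pump of the outer membrane, from 324 ± 7.32 to 50.8 ± 4.74 CPM (log2 -2.68, SE 0.074), and Slc6a6, the taurine transporter, from 358 ± 18.4 to 226 ± 1.86 CPM (log2 -0.66, SE 0.056). Akr1b1, which makes the osmolyte sorbitol, rose from 145 ± 6.04 to 368 ± 14.3 CPM (log2 1.35, SE 0.057).

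Of 32 genes of the glucocorticoid, retinoid and xenobiotic response 12 rose and 10 fell, 12 and 7 with library totals alone. Cyp7b1, which hydroxylates oxysterols, rose from 0.839 ± 0.0379 to 19.9 ± 4.29 CPM (log2 4.56, SE 0.17). Hsd11b1, which turns inactive glucocorticoid into the active hormone, rose from 4.29 ± 0.575 to 28.0 ± 3.83 CPM (log2 2.70, SE 0.13). Abcb4, a phospholipid pump, was among the largest gains in abundance, at 201, 204 and 197 CPM without erastin and 908, 951 and 912 CPM with it (log2 difference 2.20, SE 0.039, adjusted p = 5.07e-13).

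Lysosomal genes changed by small steps. Of 64 genes of lysosomes and autophagy 36 fell and 7 rose with TMM, but 17 fell and 21 rose with library totals alone. Ctsa, protective protein of lysosomal enzymes, fell from 494 ± 24.0 to 249.5 ± 3.74 CPM (log2 -0.99, SE 0.050), a change that exceeded the shift between scalings. Nuclear genes of the respiratory chain were mostly not called, with 4 up and 12 down of 67, and 20 and 1 with library totals alone. With TMM 23.9% were called, below the 43.6% of all genes. Without NPPC-Exo replicate 1 the counts were 1 up and 19 down.

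Transcription factors were called about as often as genes in general: of 1131 tested, 221 rose and 214 fell, 38.5% in all. Besides those named above, Zbtb7c rose from 1.83 ± 0.130 to 16.4 ± 0.827 CPM and Irf8 from 4.50 ± 0.606 to 15.1 ± 0.957 CPM. Erg, a factor of endothelium and cartilage, fell from 6.45 ± 0.648 to 0.711 ± 0.146 CPM (log2 -3.18, SE 0.25). Thrb, a receptor of thyroid hormone, fell from 32.1 ± 2.78 to 3.67 ± 0.378 CPM (log2 -3.12, SE 0.12). Mef2c, of muscle and of hypertrophic cartilage, fell from 153 ± 3.43 to 30.8 ± 2.54 CPM (log2 -2.31, SE 0.075), and Klf9 from 50.2 ± 3.44 to 14.4 ± 1.62 CPM (log2 -1.80, SE 0.091).

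The response was set beside that of cells given miR-Exo, which shares no library with it. The difference between the 2 responses, tested as an interaction, was called for 2006 genes (12.8%), 1256 of which were also called here. For 808 of these the interaction had the opposite sign to the change under NPPC-Exo, a smaller response with miR-Exo or a reversed one. For 448 it had the same sign, a larger response with miR-Exo. These genes were taken because they were called under NPPC-Exo, so the split does not show which response was larger over all genes. Of the 6816 genes changed under NPPC-Exo, 5097 were also changed under miR-Exo, 4949 of them in the same direction. The share of all tested genes changed under miR-Exo is not given here, so the overlap of 5097 has no baseline. Both responses also came from the same fit, with a shared estimate of the spread, so the overlap is no measure of agreement between independent tests. The count of 2006 was 1205 without erastin and NPPC-Exo replicate 3 and 1218 without NPPC-Exo replicate 2.

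Genes with the smallest adjusted p for the interaction included Lum, Abi3bp, Il6 and Fgf10. Lum, a small leucine-rich proteoglycan, was at 104, 106 and 122 CPM without erastin and 77.5, 92.3 and 93.3 CPM with it under NPPC-Exo (log2 difference -0.33, SE 0.076, adjusted p = 0.00323, and -0.04676 with library totals alone, no longer called), and its difference with miR-Exo was 1.71, an interaction of 2.04 (SE 0.11, adjusted p = 1.72e-06). Abi3bp, a matrix protein, was at 77.8, 78.5 and 77.1 CPM without erastin and 15.2, 18.0 and 21.2 CPM with it under NPPC-Exo (log2 difference -2.10, SE 0.11, adjusted p = 5.76e-09), against a log2 difference of -0.09 with miR-Exo, an interaction of 2.01 (SE 0.15, adjusted p = 2.61e-05). Il6 differed by 1.93 with NPPC-Exo and 3.97 with miR-Exo, an interaction of 2.04 (SE 0.19, adjusted p = 8.72e-05), and Fgf10 by -2.53 and -1.31, an interaction of 1.22 (SE 0.11, adjusted p = 8.72e-05). In these terms the fall of Abi3bp and Fgf10 was larger under NPPC-Exo than under miR-Exo, and the rise of Il6 smaller.

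**Figure D5:**
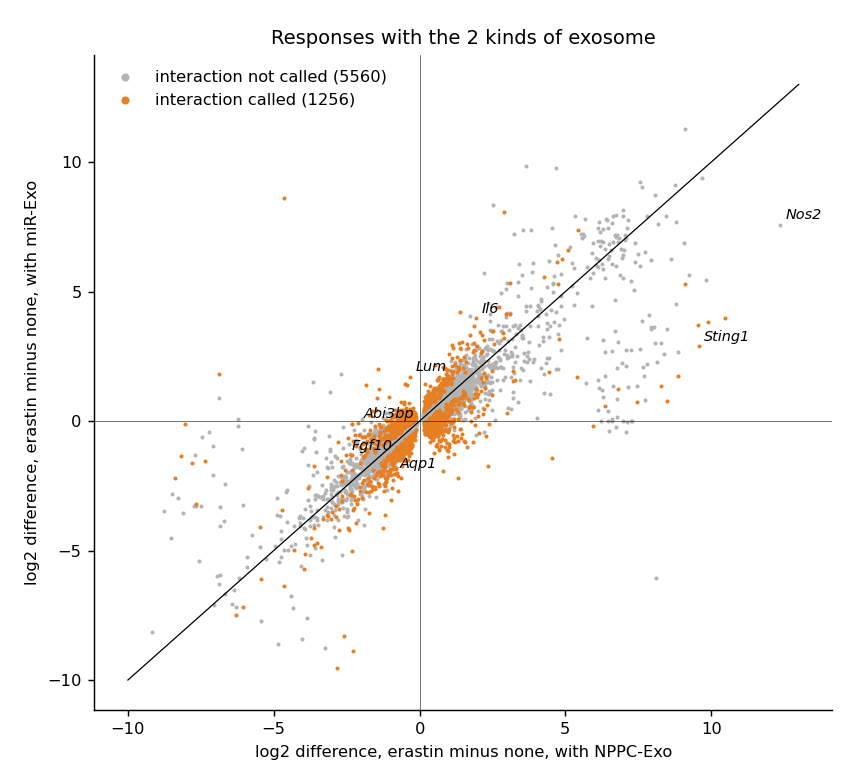
Log2 difference, erastin minus none, with NPPC-Exo (horizontal) and with miR-Exo (vertical) for the 6816 genes called with NPPC-Exo; orange points were also called for the interaction and the line marks equal responses. Abi3bp, Il6 and Lum lie above the line, with interactions of 2.01 (SE 0.15, adjusted p = 2.61e-05), 2.04 (SE 0.19, adjusted p = 8.72e-05) and 2.04 (SE 0.11, adjusted p = 1.72e-06).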

How the data were processed

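Sequencing libraries of 12 rat cultures, 3 in each of 4 groups, were analysed from the count and FPKM columns of 1 table. Per the submitters' processing notes StringTie and the build mRatBN7.2 were used, with aligner and counter not given in the sources used here. Values in the table are per gene. Counts as deposited are raw counts, and the deposited FPKM values are scaled by the authors to gene length and depth. Of the counts from 1 to 20, 57.3% were even, so both mates of some pairs may have been counted; halved counts were tried.

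Counts of all 12 libraries were fitted in edgeR 4.0.16 (R 4.3.3) with TMM factors, filterByExpr and the quasi-likelihood test, with 4 group means and no block. Adjusted p-values are Benjamini-Hochberg values over 15650 genes, and 0.05 was the threshold. Library totals were 54616827 to 63895336 counts, and 3 counts, the limit a count of 0 allows, correspond to 0.0446 to 0.0565 CPM. Such limits cover counting error only. The script was tested on simulated data. DESeq2 1.42.0, limma 3.58.1 on log2(FPKM + 1) and log2(FPKM + 0.1), other scalings, filters and left-out libraries were alternatives.

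The groups, lists and naming rule were chosen with earlier results of these data known. The rule took the 40 largest rises and falls, the 25 largest gains and losses in CPM, genes at 0 in a group, up to 8 members of each list by p and 4 by level, and 15 by the interaction. Genes outside it were named after their values were seen: Acsl4, Bdnf, Cd14, Cd68, Cdc20, Chac1, Egfl7, Erg, Gpx4, Irf8, Mcm5, Mmp12, Myocd, Pttg1, Tap2, Tek, Tfrc, Thrb, Tie1, Zbtb7c and the miRNA genes. Promoter and miRNA sequences are from RefSeq on GRCr8. Some genes and lists are not reported here.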

Additional observations from a re-analysis of the deposited data

Results flagged for a closer look

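For 82 of 238 named genes the response to erastin differed between the 2 kinds of exosome, by edgeR's interaction term with adjusted p under 0.05. Some of these genes were named for this interaction and others for a large change, so their number says nothing of genes in general, and the groups below are sorted by direction alone. Each value is the difference with miR-Exo minus the difference with NPPC-Exo, on the log2 scale, from 3 libraries in each of 4 groups. Genes with no count in NPPC-Exo libraries gave -6.68 for Sting1, -6.51 for Gbp4, -6.06 for Foxh1, -5.86 for Bcl6b and -3.81 for Slpi, fitted values that depend on the prior count and are no bound.

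Among named genes that were higher with erastin under NPPC-Exo, the upward difference was larger with miR-Exo by 2.04 for Il6, 1.46 for Ptges, 1.37 for Mmp13, 1.30 for Enpp2, 1.18 for Sod2, 1.01 for C1s, 0.95 for Nlrp3, 0.92 for Cd55, 0.88 for Vcan, 0.85 for Cp, 0.71 for Inhba, 0.71 for Il1r1, 0.66 for Lif, 0.60 for Clu, 0.58 for Ptgs2, 0.56 for C1r, 0.54 for Angptl4, 0.51 for Nfkbiz, 0.47 for Tfrc, 0.40 for Cxcl12, 0.38 for Ugdh, 0.25 for Lox and 0.20 for Hsp90ab1. It was smaller with miR-Exo for others, with -1.68 for Lamb3, -1.16 for Cdc20, -0.71 for Podnl1, -0.66 for Plk2, -0.60 for Akr1b1, -0.57 for Pdk4, -0.55 for Irf1, -0.50 for Nfkb2, -0.45 for Tubb5, -0.45 for Ccnd1, -0.40 for Rrm2, -0.36 for Egfr and -0.35 for Nqo1.

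Among named genes that were lower with erastin under NPPC-Exo, the downward difference was larger with miR-Exo, with -1.74 for Col2a1, -1.73 for Pln, -1.20 for Acta1, -1.15 for Aqp1, -1.12 for Sox9, -1.03 for Il1rl1, -0.98 for Col1a1, -0.86 for Slc6a6, -0.82 for Timp3, -0.65 for Esam, -0.64 for Acta2, -0.64 for Mylk, -0.63 for Sdc2, -0.55 for Tgfb2, -0.54 for Myh11, -0.51 for Pax1, -0.48 for Aspn, -0.47 for Cnn1, -0.45 for Jag1, -0.44 for Irs2, -0.44 for Ccn2, -0.42 for Atp2b4, -0.29 for Itgb1 and -0.26 for Fbln5. It was smaller with miR-Exo for others, with 2.01 for Abi3bp, 1.52 for Hpgd, 1.24 for Hdac9, 1.22 for Fgf10, 0.95 for Slc7a11, 0.92 for Mgp, 0.87 for Bdnf, 0.73 for Klf9, 0.60 for Tnfrsf11b, 0.56 for Adamts1, 0.46 for Ift140, 0.43 for Mef2c, 0.37 for Ctsa, 0.36 for Col12a1 and 0.28 for Igf2r.

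Pomp, at -1.18, differed upward with NPPC-Exo and slightly downward with miR-Exo. Lum, at 2.04, was lower with erastin under NPPC-Exo and higher under miR-Exo.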

How the results depend on the processing

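With library totals alone 6405 genes rose, 1832 fell and 1661 rose at least 2-fold, and the medians of 17 of 68 lists changed sign. With limma on log2(FPKM + 1) the counts were 6247 higher, 1806 lower and 336 at least 2-fold lower, and on log2(FPKM + 0.1) 6246, 1803 and 564. Requiring 5 CPM tested fewer genes and left 593 at least 2-fold higher and 577 at least 2-fold lower. DESeq2, upper-quartile factors, no filter, halved counts and the 6 libraries alone kept all 4 counts within 1.5 times. Leaving out each replicate in turn gave 2988 to 3234 genes higher, 2927 to 3351 lower, 999 to 1115 at least 2-fold higher, 845 to 926 at least 2-fold lower, and 1205 to 2419 for the interaction. It moved by over 1.5 times without NPPC-Exo replicate 2 (1218) and without erastin and NPPC-Exo replicate 3 (1205); the cause was not tested. The labels number the replicates but do not say whether equal numbers mark paired cultures. Deviations of same-numbered libraries from their group means correlated at -0.101, 0.00165 and -0.0127. This cannot show that the cultures were unpaired, since a shared effect may be small beside the spread between libraries. With the replicate block 3328 genes were higher and 3392 lower, 1035 and 919 at least 2-fold, and the interaction count was 1928; none of the 238 named genes changed its call. Of the named genes, 4 that were not called changed sign. Under library totals, log2(FPKM + 1) and log2(FPKM + 0.1) Acsl4 gave 0.2457, 0.2331 and 0.2391, Mmp2 0.2601, 0.2527 and 0.2542, Mmp14 0.2648, 0.2576 and 0.2589, and Gpx4 0.02372, 0.05741 and 0.06122. Leaving out replicates, the log2 fold change of Gpx4 was -0.4333 to 0.01922. Genes near 3 counts, such as the miRNA genes, are limited by depth.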

Other observations

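Genes of chromatin were called in both directions, 19 higher and 15 lower of 51 tested, 29 and 7 with library totals alone. Hdac9, a histone deacetylase of muscle, fell from 8.55 ± 1.28 to 0.604 ± 0.152 CPM (log2 -3.82, SE 0.21), while Hmgb2, a chromatin protein of dividing cells, rose from 96.1 ± 6.01 to 251 ± 8.86 CPM (log2 1.39, SE 0.076). Ezh2, which writes a repressive histone mark, rose from 54.2 ± 1.39 to 112 ± 1.47 CPM (log2 1.05, SE 0.060), and Dnmt1, which copies DNA methylation, from 127 ± 6.65 to 223 ± 5.28 CPM (log2 0.81, SE 0.056). Dnmt3a, which sets new methylation, fell from 29.0 ± 1.69 to 15.8 ± 0.756 CPM (log2 -0.87, SE 0.082). Of 37 proteasome genes 17 rose and the others were not called by edgeR's quasi-likelihood test, at a median log2 difference of 0.13. The share called, 45.9%, was near the 43.6% of all genes, and 35 rose with library totals alone. Pomp, which assembles the proteasome, rose from 23.1 ± 5.99 to 42.6 ± 2.22 CPM (log2 0.88, SE 0.20), and Psma6, a subunit of its core, from 74.5 ± 9.84 to 119 ± 4.71 CPM (log2 0.67, SE 0.081). Of 50 genes of the primary cilium 10 rose and 12 fell (44.0% called, near the 43.6% of all genes), 22 and 4 with library totals alone. Ift140, of the transport train that returns from the tip, fell from 58.1 ± 2.39 to 34.1 ± 1.92 CPM (log2 -0.77, SE 0.067), and Rpgrip1l, of the gate at the base, rose from 15.01 ± 1.45 to 24.6 ± 0.470 CPM (log2 0.71, SE 0.093).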
